A study of Mus musculus with 7 samples.

Results

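Transcripts of 10 genes of the semaphorin system were examined in immature and mature bone marrow-derived dendritic cells (BMDCs). They were 6 semaphorin genes (Sema4a, Sema4b, Sema4c, Sema4d, Sema6d and Sema7a), 3 plexin genes (Plxna1, Plxnc1 and Plxnd1) and the neuropilin gene Nrp2. They were found by symbol among the 28666 genes of the table, and all 10 were present and passed the filter on low counts. The table holds 30 genes of the semaphorin, plexin and neuropilin families, so the other 20 are described after them.

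BMDCs were grown from bone marrow of female C57BL/6 mice aged 6 to 8 weeks, with GM-CSF at 20 ng/mL and IL-4 at 10 ng/mL for 7 days, and placed in a Transwell system. The partner cells were MC38, a colon carcinoma line of the mouse. DON, an antagonist of glutamine metabolism, was used at 5 μM for 24 h, and the cells were then sorted by flow cytometry. For the sorted cells the study's figure legend names MC38 cells given DMSO or DON, while its text names DON. The DMSO condition is described with less glutamine than the DON condition. The groups are immature BMDCs (3 libraries) and mature BMDCs (4 libraries), and the sample labels give the maturation state only. The labels do not give the treatment of each library, the markers of the sort or the number of mice behind a library, so p values measure the spread between these libraries.

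Semaphorins are secreted or membrane-bound ligands known first as guidance cues of growing axons. Plexins are their main receptors and act on small GTPases and so on the cytoskeleton and on integrins. Neuropilins are co-receptors without enzymatic activity of their own, which bind class 3 semaphorins and vascular endothelial growth factors. In dendritic cells (DCs), semaphorins of classes 4, 6 and 7 take part in contact with T cells, and plexin-A1 is known for its role in T cell stimulation and in the entry of DCs into lymphatic vessels.

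Total counts were 54846746 to 67973086 per library. Of 14 DC marker genes 8 were higher and 0 lower in mature cells, and of 11 macrophage and monocyte marker genes 10 were lower and 0 higher. Of all genes tested, 13.2% were higher and 9.95% lower. The DC list holds Cd80 and Cd86, which the study's flow cytometry uses to mark mature DCs, so part of its count may follow from the sort. Itgax, Cd74, H2-Aa, H2-Ab1, H2-Eb1 and Irf4 of the same list did not pass. Itgax was lower in every mature library, at 240 to 261 FPKM in immature and 161 to 227 FPKM in mature libraries. The summed level of the macrophage list was 1120 to 1160 FPKM (fragments scaled by transcript length and library size) in immature and 226 to 280 FPKM in mature libraries. Heart and muscle genes stood out in mature replicates 2, 3 and 4, at a summed 316 to 339 FPKM, against 13.4 FPKM in mature replicate 1 and 2.38 to 2.99 FPKM in immature libraries. Most of the sum in mature replicate 1 was Tnni3, at 11.2 FPKM, and every other gene of that list was at most 0.80 FPKM there. Markers of T and NK cells, B cells and fibroblasts summed to at most 4.33 FPKM in any library, and those of neutrophils to 131 to 136 FPKM in immature and 15.7 to 24.6 FPKM in mature libraries. Nearly all of the neutrophil sum was Mmp8, at 127 to 134 FPKM in immature and 13.8 to 23.3 FPKM in mature libraries. No other gene of that list was above 2.79 FPKM in any library. Epithelial markers summed to 17.4 to 21.4 FPKM in immature and 13.9 to 21.8 FPKM in mature libraries. The largest part was Cdh1, at 9.76 to 11.6 FPKM over all libraries. No other gene of the epithelial list was above 5.29 FPKM, and Epcam was at most 0.72 FPKM. Endothelial markers summed to 12.8 to 13.4 FPKM in immature and 3.80 to 6.49 FPKM in mature libraries. Of 7 endothelial markers 1 was lower, Vwf, at 8.13 to 8.68 FPKM in immature and 1.03 to 1.53 FPKM in mature libraries. The 4 that were higher, Cdh5, Tek, Emcn and Cldn5, were at no more than 0.71 FPKM in any library. In mature replicate 1 they were at no more than 0.05 FPKM. Col1a2, Dcn and Lum of the fibroblast list were likewise highest in mature replicates 2, 3 and 4, the libraries with high heart genes. In bulk RNA, fewer cells of a type and less RNA per cell cannot be told apart.

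The quasi-likelihood test of edgeR with Benjamini-Hochberg adjustment was run over 17461 genes. A gene is said to rise or fall where its adjusted p was under 0.05 and its log2 fold change was 1 or more in size. Among the 10 genes, Sema7a and Sema4c rose and Sema4d and Plxna1 fell in mature BMDCs. Of all genes tested, 23.1% passed the criteria, 13.2% higher and 9.95% lower, against these 4 of 10. With DESeq2 2 of the 10 rose and 2 fell, and 21.1% of 21177 genes passed. The genes were chosen with earlier results of these data known, so the shares are given as a description. Immature and mature libraries were fully separated in CPM for 7 of the 10, where 52.1% of all genes tested showed no overlap. The median log2 fold change of the 10 was 0.31, and that of all genes tested was 0.06.

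**Figure D1:**
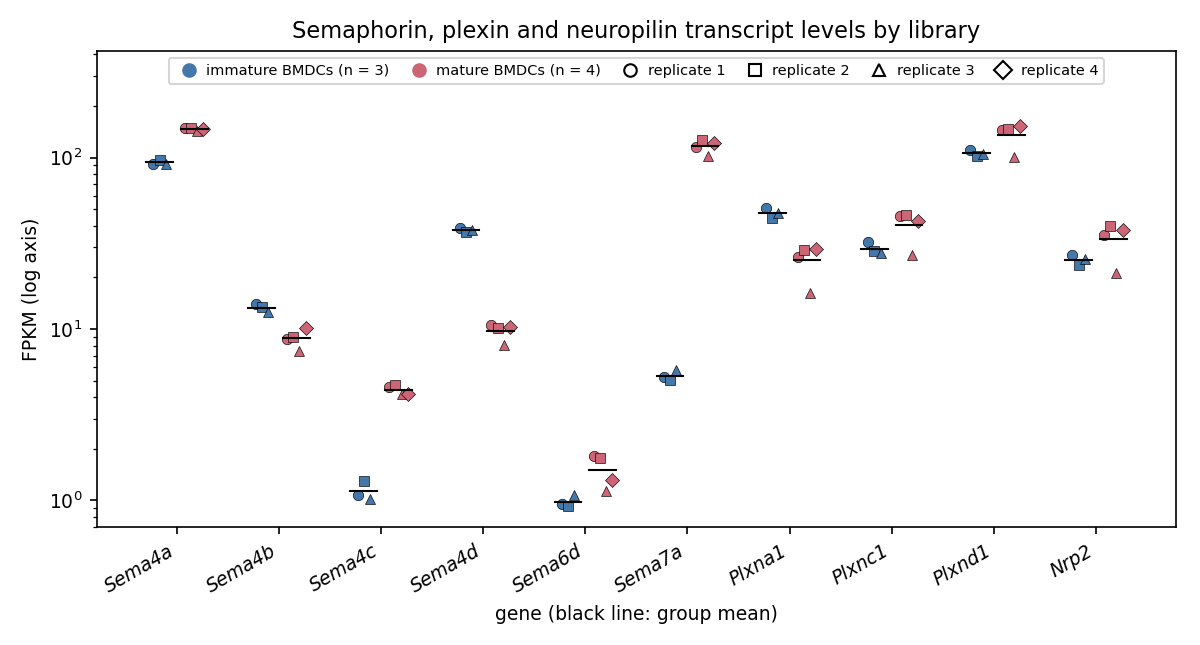
FPKM on a log axis of the 10 genes in 3 immature (blue) and 4 mature (red) libraries, with the replicate given by the shape of the point and the group mean by a black line. Sema7a moves from 5.06 to 5.75 FPKM in immature libraries to 102 to 127 FPKM in mature ones, and mature replicate 3 (triangle) lies below the other mature libraries for the plexin genes and Nrp2.

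Sema7a, which encodes a semaphorin held in the membrane by a lipid anchor that binds β1 integrins and plexin-C1, changed more than any other of the 10. It had 5.22, 5.06 and 5.75 FPKM in immature replicates 1 to 3 and 115, 127, 102 and 122 FPKM in mature replicates 1 to 4. The groups were far apart, and the lowest mature library lay above every immature one. Sema7a thus rose from 5.34 ± 0.361 FPKM (SD, n = 3) to 117 ± 11.0 FPKM (SD, n = 4), and its fitted level in counts was 20.2-fold higher, a log2 fold change of 4.34 (standard error, SE, 0.11, adjusted p = 1.28e-07 by edgeR). Its level in mature replicate 1 was within the range of the other mature libraries. Heart and muscle genes summed to 13.4 FPKM in that replicate, against 2.38 to 2.99 FPKM in immature libraries. Of the 13.4 FPKM, 11.2 FPKM was the single gene Tnni3. The other mature libraries had 316 to 339 FPKM. The part of heart cells in the rise of Sema7a was not tested.

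The Sema7a gene (ENSMUSG00000038264) lies on chromosome 9 from 57940112 to 57962865, on the plus strand, and overlaps no other annotated gene. Its start region is shown because the gene had the largest change. The sequence of 300 bases is from RefSeq on build GRCm38.p6, chr9:57939862-57940161 on the plus strand, 250 bases before to 50 after the start of transcription. No base is in capitals, since it holds no match to the motifs searched, which are given further on.
Sema7a: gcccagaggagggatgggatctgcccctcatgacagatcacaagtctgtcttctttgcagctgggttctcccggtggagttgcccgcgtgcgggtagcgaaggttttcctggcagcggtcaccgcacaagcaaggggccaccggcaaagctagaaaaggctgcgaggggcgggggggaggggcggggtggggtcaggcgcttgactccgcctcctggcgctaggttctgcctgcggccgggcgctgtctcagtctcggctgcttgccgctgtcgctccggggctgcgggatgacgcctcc
It holds 23 CpG dinucleotides, where the median of 32851 such regions is 7, and its GC content is 67.3% against a median of 52.7%.

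Sema4c, which encodes a transmembrane ligand of plexin-B2, was a low transcript in immature cells. Its levels were 1.08, 1.29 and 1.02 FPKM in immature replicates 1 to 3 and 4.57, 4.70, 4.20 and 4.19 FPKM in mature replicates 1 to 4. The groups did not overlap, and the mature libraries were close together. It rose from 1.13 ± 0.142 FPKM (SD, n = 3) to 4.42 ± 0.260 FPKM (SD, n = 4), a 3.61-fold increase in counts and a log2 fold change of 1.85 (SE 0.11, adjusted p = 3.01e-06 by edgeR). Sema4c (ENSMUSG00000026121, chromosome 1 from 36548639 to 36558349, minus strand) overlaps the noncoding gene D430040D24Rik on the other strand. The library kit marks strand, but the strand setting of the counting is not given in the sources used here.

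The upstream one of the 2 start regions that RefSeq lists for Sema4c is shown because it belongs to the other gene that rose and holds matches. It is chr1:36558332-36558631 on the minus strand of GRCm38.p6, with capitals for a match to the NF-kB motif and, nearer to the start, for the AP-1 motif TGANTCA.
Sema4c: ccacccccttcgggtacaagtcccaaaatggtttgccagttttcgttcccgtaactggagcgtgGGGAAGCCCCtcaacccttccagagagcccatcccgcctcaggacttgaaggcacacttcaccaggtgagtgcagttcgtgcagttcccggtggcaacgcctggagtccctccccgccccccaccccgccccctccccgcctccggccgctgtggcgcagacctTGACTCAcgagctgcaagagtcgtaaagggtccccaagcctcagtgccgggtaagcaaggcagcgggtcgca
The NF-kB match reads the same motif on both strands and begins 186 bases before the start, and the AP-1 match begins 22 bases before it. The other start region of Sema4c held no match.

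Sema4d, known as CD100, encodes a membrane ligand that is shed by proteases and that binds plexin-B1, plexin-B2 and, on B cells and DCs, CD72. It was among the abundant semaphorin transcripts of immature cells, with 38.6, 36.8 and 37.9 FPKM in replicates 1 to 3. Mature replicates 1 to 4 had 10.5, 10.1, 8.12 and 10.3 FPKM, all below every immature library. It fell from 37.8 ± 0.890 FPKM (SD, n = 3) to 9.77 ± 1.12 FPKM (SD, n = 4), a log2 fold change of -2.06 (SE 0.09, adjusted p = 4.99e-07 by edgeR), and its level in counts was 4.17-fold higher in immature cells. The macrophage and monocyte markers moved the same way, and their part in this fall was not tested.

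Sema4d (ENSMUSG00000021451) spans chromosome 13 from 51685529 to 51793673 on the minus strand in the deposited table. RefSeq lists 3 start regions for it, with 3, 3 and 2 CpG dinucleotides, and 31.4% of all start regions hold at most 3. The start region with a motif match is shown as that of the gene with the largest fall, chr13:51748761-51749060 on the minus strand of GRCm38.p6, with the AP-1 match in capitals 239 bases before the start.
Sema4d: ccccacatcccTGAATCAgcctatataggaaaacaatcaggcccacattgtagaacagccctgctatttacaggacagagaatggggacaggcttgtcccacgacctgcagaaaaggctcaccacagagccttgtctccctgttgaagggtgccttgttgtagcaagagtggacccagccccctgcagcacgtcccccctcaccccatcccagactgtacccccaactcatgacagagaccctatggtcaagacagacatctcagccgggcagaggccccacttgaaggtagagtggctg
This contrasts in base composition with Sema7a, at a GC content of 56.0% against 67.3%.

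The motifs searched on both strands were NF-kB, AP-1 (TGANTCA), the interferon-stimulated response element (ISRE) and PU.1 (GAGGAAG). RefSeq gave 17 start regions for 9 of the 10 genes, and none was found for Plxna1. NF-kB matches were in 3 of the 17 and in 8.46% of all regions, in those of Sema4a, Sema4b and Sema4c. AP-1 matches were in 2 of the 17 and in 7.81% of all, ISRE matches in 1 and 3.44%, in that of Plxnc1, and PU.1 matches in 5 and 13.6%. A match of letters is a description of the sequence only.

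Sema4a and Sema4b encode transmembrane class 4 ligands, of which Sema4a is known on DCs as a costimulator of T cells. Sema4a had 92.3, 96.9 and 91.9 FPKM in immature replicates 1 to 3 and 149, 149, 143 and 146 FPKM in mature replicates 1 to 4. The groups did not overlap, but the difference was below the criterion on fold change, with a log2 fold change of 0.54 (SE 0.07, adjusted p = 0.000295 by edgeR). Sema4b was lower in every mature library, at 13.3 ± 0.724 FPKM (SD, n = 3) in immature and 8.84 ± 1.07 FPKM (SD, n = 4) in mature cells. Its log2 fold change of -0.70 (SE 0.09, adjusted p = 0.000304 by edgeR) was also below the criterion. Of all genes tested, 46.1% had an adjusted p under 0.05 when the fold change was left aside.

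Sema6d, which encodes a transmembrane ligand of plexin-A1, was the lowest of the 10 in both groups. It had 0.95, 0.93 and 1.07 FPKM in immature replicates 1 to 3 and 1.82, 1.76, 1.13 and 1.32 FPKM in mature replicates 1 to 4. The groups were separated by a small gap, and the mature libraries varied more than the immature ones. The log2 fold change was 0.50 (SE 0.16, adjusted p = 0.0333 by edgeR), and the adjusted p ran from 0.0032 without mature replicate 3 to 0.119 over the alternatives.

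Among the receptors, Plxna1 was the gene that fell. It encodes plexin-A1, which forms a complex with TREM2 and the adaptor DAP12 (Tyrobp) and binds Sema6D. Its levels were 51.0, 44.4 and 47.4 FPKM in immature replicates 1 to 3 and 26.4, 29.0, 16.3 and 29.4 FPKM in mature replicates 1 to 4. No mature library reached an immature one, and mature replicate 3 lay well below the other mature libraries. Plxna1 fell from 47.6 ± 3.33 FPKM (SD, n = 3) to 25.3 ± 6.12 FPKM (SD, n = 4), a log2 fold change of -1.03 (SE 0.17, adjusted p = 0.000999 by edgeR). The fall stood at the edge of the criterion on fold change. Without mature replicate 3 the log2 fold change was -0.87 (edgeR adjusted p = 4.19e-06), which is under that criterion, and without immature replicate 1 it was -0.99. The partners Trem2 and Tyrobp fell as well, from 41.2 ± 2.17 to 15.7 ± 2.18 FPKM and from 297 ± 19.6 to 131 ± 27.1 FPKM (SD, n = 3 and n = 4), with log2 fold changes of -1.49 and -1.28 (edgeR adjusted p = 3.66e-05 and 0.000457). Both partners are also genes of macrophages, whose markers were lower in mature cells, and the part of these cells was not tested. Plxna1 (ENSMUSG00000030084) lies on chromosome 6 from 89316314 to 89362620 on the minus strand and overlaps the antisense gene Gm26811.

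Plxnd1, Plxnc1 and Nrp2 did not pass the test with all 7 libraries. Plxnd1, which encodes plexin-D1, a receptor of Sema3E and Sema4A, had 111, 102 and 105 FPKM in immature replicates 1 to 3 and 145, 147, 100.2 and 153 FPKM in mature replicates 1 to 4. Plxnc1, which encodes the receptor of Sema7A, had 32.0, 28.5 and 27.7 FPKM and 45.7, 46.4, 27.0 and 42.5 FPKM. Nrp2, a co-receptor of class 3 semaphorins that carries polysialic acid on mature DCs, had 26.9, 23.6 and 25.5 FPKM and 35.4, 39.8, 21.2 and 37.7 FPKM. For each of these genes mature replicates 1, 2 and 4 lay above every immature library and mature replicate 3 did not. The log2 fold changes were 0.25 for Plxnd1 (SE 0.12, adjusted p = 0.135 by edgeR), 0.34 for Plxnc1 (SE 0.15, adjusted p = 0.101 by edgeR) and 0.28 for Nrp2 (SE 0.17, adjusted p = 0.213 by edgeR). Without mature replicate 3 they were 0.37, 0.49 and 0.45, with edgeR adjusted p values of 0.000361, 8.61e-05 and 0.000245, still below the criterion on fold change. When any other library was left out instead, the edgeR adjusted p was 0.217 to 0.334, 0.145 to 0.253 and 0.290 to 0.451. The omission of mature replicate 3 was singled out after its low values in these genes were seen.

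**Figure D2:**
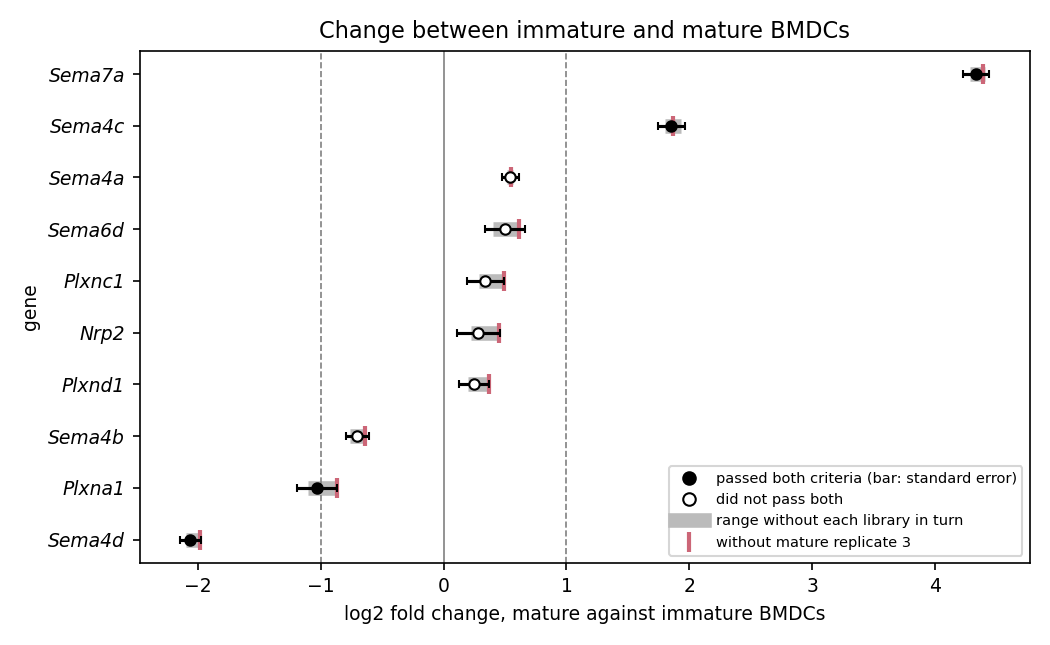
Log2 fold change of the 10 genes, mature against immature BMDCs, with the standard error as a thin bar, the range when each library is left out as a grey band and the value without mature replicate 3 as a red tick. Sema7a at 4.34 and Sema4c at 1.85 lie above the dashed line at 1, Sema4d at -2.06 lies below the line at -1, and Plxna1 crosses that line without mature replicate 3.

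The low values of mature replicate 3 went with transcript length. Of the 10 genes, those with a longest transcript of at least 6444 nt (Sema6d, Nrp2, Plxnd1, Plxnc1 and Plxna1) were at 0.757, 0.618, 0.739, 0.660 and 0.632 times the mean of mature replicates 1, 2 and 4 in CPM, counts scaled by library size after TMM normalization. The genes of 3205 to 4482 nt were at 0.862 to 1.06 times that mean. Among all genes over 1 CPM in each mature library, the median ratio in this library was 0.698 for 1673 genes of at least 6000 nt and 0.954 for 3418 genes of 3000 to 4500 nt. The 5 long genes lay on either side of the median of other long genes. Across the 10 genes, which share this library and its normalization, the Spearman correlation between the log2 ratio and length was -0.915 in mature replicate 3, and over all 12293 genes above 1 CPM in each mature library it was -0.667. In the remaining mature libraries it was 0.553 to 0.624 across the 10 and 0.386 to 0.555 over all, and their reference means include replicate 3. Why long transcripts were low in this library was not tested.

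**Figure D3:**
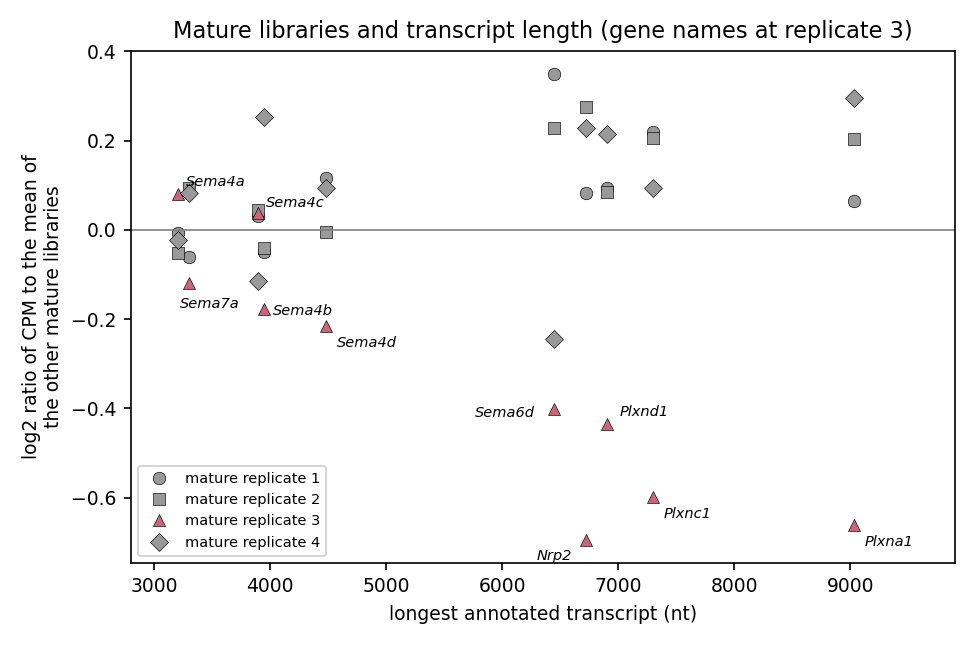
Log2 ratio of CPM in each mature library to the mean of the remaining mature libraries against the longest annotated transcript in nucleotides, for the 10 genes. Mature replicate 3 (red triangles) lies at 0.08 for Sema4a, at 3205 nt, and at -0.69 for Nrp2, at 6723 nt, and -0.66 for Plxna1, at 9034 nt, while the other libraries (grey) stay between -0.25 and 0.35.

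Within the semaphorin family, the make-up of transcripts changed from one group to the other. Summed over the 19 semaphorin genes of the table, the level was 157 ± 2.19 FPKM (SD, n = 3) in immature and 292 ± 15.9 FPKM (SD, n = 4) in mature cells. Sema7a made up 3.18 to 3.71% of it in immature and 37.9 to 41.6% in mature libraries. Sema4d went from 23.1 to 24.7% down to 3.02 to 3.59%, and Sema4b from 8.12 to 8.96% down to 2.78 to 3.39%. Sema4a stayed the most abundant semaphorin transcript in each library, at 59.0 to 60.9% in immature and 48.7 to 53.1% in mature ones, although its own level was higher in mature cells. These shares depend on each other, since they add up to the whole.

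Shares within the plexin family set long genes against long genes. Mature replicate 3 had the lowest mature share of Plxna1 and Plxnc1 and the highest of Plxnd1. Plxna1 made up 24.4 to 25.4% of the summed FPKM of 9 plexin genes in immature and 11.1 to 12.9% in mature libraries. Plxnd1 made up 55.2 to 56.2% and 64.8 to 68.1%, and Plxnc1 14.8 to 15.9% and 18.4 to 20.6%. The groups did not overlap in any of these shares. The summed level was 190 ± 9.85 FPKM (SD, n = 3) in immature libraries, and in mature replicates 1 to 4 it was 222, 228, 147 and 228 FPKM.

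**Figure D4:**
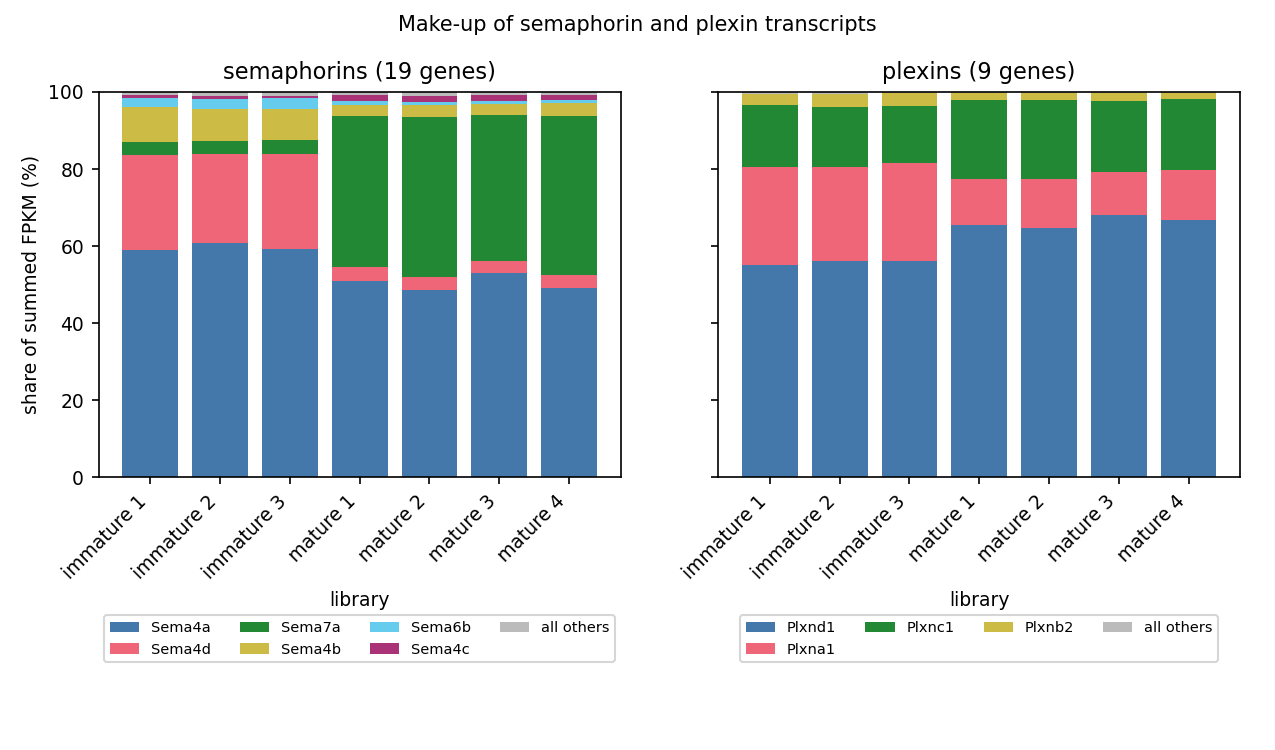
Share in percent of each gene in the summed FPKM of the 19 semaphorin genes (left) and the 9 plexin genes (right), one bar per library. Sema7a (green, left) grows from at most 3.71% to at least 37.9%, Sema4d (red, left) shrinks from at least 23.1% to at most 3.59%, and Plxna1 (red, right) from at least 24.4% to at most 12.9%.

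The order of levels in FPKM, which are scaled by length, differed between the groups. In immature cells it ran Plxnd1, Sema4a, Plxna1, Sema4d, Plxnc1, Nrp2, Sema4b, Sema7a, Sema4c and Sema6d, and only the last pair overlapped in range. In mature cells it ran Sema4a, Plxnd1, Sema7a, Plxnc1, Nrp2, Plxna1, Sema4d, Sema4b, Sema4c and Sema6d. There the ranges of Sema4a and Plxnd1, of Plxnd1 and Sema7a, of Plxnc1 and Nrp2, of Nrp2 and Plxna1 and of Sema4d and Sema4b overlapped. Sema7a moved from the eighth to the third place.

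Ligands and their receptors were set side by side by the ratio of their FPKM within a library. Sema7a was at 0.163 to 0.207 times the level of its receptor gene Plxnc1 in immature and at 2.51 to 3.78 times in mature libraries. The other receptor of Sema7A is an integrin of the subunits encoded by Itga1 and Itgb1, whose levels differed in opposite directions. Itgb1 was at 132 ± 4.17 FPKM (SD, n = 3) and 194 ± 27.8 FPKM (SD, n = 4), a log2 fold change of 0.44 (edgeR adjusted p = 0.00637). Itga1 was at 2.11 ± 0.221 FPKM (SD, n = 3) and 1.29 ± 0.367 FPKM (SD, n = 4), a log2 fold change of -0.83 (edgeR adjusted p = 0.00948), and both were below the criterion on fold change. Sema6d was at 0.0186 to 0.0226 times Plxna1 in immature and 0.0449 to 0.0692 times in mature libraries. For Sema4a and Plxnd1 the ratio was 0.830 to 0.948 and 0.960 to 1.43. Sema4c was at 0.162 to 0.214 times its receptor gene Plxnb2 in immature and 1.14 to 1.36 times in mature libraries, and Sema4d, the pair that went the other way, at 6.02 to 6.52 and 2.46 to 3.00 times Plxnb2. The groups overlapped for none of these 5 pairs, though only narrowly for Sema4a and Plxnd1 (0.948 against 0.960). Of single genes tested, 52.1% showed no overlap in CPM, and the share among pairs of genes was not computed. The highest mature ratio was in replicate 3, the library with low values of long transcripts, for each pair but that of Sema4d, where it was in replicate 4.

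The receptors of Sema4D did not all move with their ligand. Cd72, which encodes a receptor of Sema4D with an inhibitory motif, had 1.42, 1.40 and 1.47 FPKM in immature replicates 1 to 3 and 6.27, 7.34, 8.52 and 6.61 FPKM in mature replicates 1 to 4. It rose with a log2 fold change of 2.22 (SE 0.16, adjusted p = 7.56e-06 by edgeR) while Sema4d fell. Plxnb2 was at 6.08 ± 0.189 FPKM (SD, n = 3) and 3.65 ± 0.467 FPKM (SD, n = 4), a log2 fold change of -0.85 (SE 0.09, adjusted p = 0.000114 by edgeR), below the criterion on fold change. Plxnb1, for another receptor of Sema4D, was at no more than 0.08 FPKM in any library. Timd2, a receptor of Sema4A, was listed at 0 FPKM in each immature library and at 0.28, 0.74, 0.35 and 0.42 FPKM in mature replicates 1 to 4 (edgeR adjusted p = 0.000164).

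Of the 20 family genes outside the 10, 19 were tested, and 4 rose and 3 fell (36.8%, where 23.1% of all genes passed). Only Nrp1, Plxnb2 and Sema6b among them had a mean of at least 1 FPKM in a group. Nrp1, the other neuropilin, had 6.58, 5.06 and 5.40 FPKM in immature replicates 1 to 3 and 1.57, 1.99, 1.13 and 2.15 FPKM in mature replicates 1 to 4. It fell with a log2 fold change of -1.85 (SE 0.19, adjusted p = 6.96e-05 by edgeR), so that Nrp2 made up 80.4 to 82.5% of neuropilin FPKM in immature and 94.6 to 95.7% in mature libraries. Sema6b was at 4.09 ± 0.229 FPKM (SD, n = 3) and 2.47 ± 0.251 FPKM (SD, n = 4), a log2 fold change of -0.83 (edgeR adjusted p = 0.000237), below the criterion.

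The other family genes that passed were all under 0.4 FPKM in every library. Plxna4 fell from 0.15 ± 0.0608 to 0.0475 ± 0.0275 FPKM and Plxnb3 from 0.317 ± 0.0503 to 0.135 ± 0.0532 FPKM (SD, n = 3 and n = 4). Sema4f rose from 0.0833 ± 0.00577 to 0.185 ± 0.0420 FPKM, and Sema6a from 0.04 FPKM in each immature library to 0.208 ± 0.0737 FPKM. Sema3b and Sema3g were at 0.02 and 0 FPKM in mature replicate 1 and at 0.18, 0.25 and 0.19 FPKM and 0.23, 0.10 and 0.05 FPKM in mature replicates 2 to 4. These are the libraries in which heart and muscle genes were high, and the part of those cells was not tested. No single class 3 semaphorin gene, whose products bind neuropilins, was above 0.25 FPKM in any library. The count of 7 was 3 without immature replicate 1 and 4 without immature replicate 2.

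Of 64 tested genes for other receptors, signal transduction, shedding and other neuropilin ligands, 13 rose and 8 fell (32.8%, where 23.1% of all genes passed), with a median log2 fold change of -0.12. Among the 11 other receptors, Cd72, Timd2, Met and L1cam rose and Trem2, Tyrobp and Flt1 fell (63.6%). Of the 42 genes of signal transduction 7 rose and 2 fell. That is 21.4%, slightly below the 23.1% of all genes that passed, so the genes named next are single cases. Fyn, which encodes a Src-family kinase downstream of plexins, rose from 14.3 ± 1.22 to 47.8 ± 3.66 FPKM, and Limk2, which encodes a kinase of cofilin, from 4.52 ± 0.133 to 15.1 ± 1.22 FPKM (SD, n = 3 and n = 4). Their log2 fold changes were both 1.63 (edgeR adjusted p = 2.18e-06 and 1.49e-06). Sh3bp1, for a Rac GTPase-activating protein bound by plexins, and Rras2, for a Ras GTPase, had log2 fold changes of 1.12 each (edgeR adjusted p = 6.11e-06 and 1.01e-05). Rap1b, for the GTPase on which plexin GAP domains act, fell from 219 ± 7.97 to 112 ± 1.42 FPKM (SD, n = 3 and n = 4), a log2 fold change of -1.07 (edgeR adjusted p = 7.13e-06).

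Of 6 tested genes for the shedding and processing of semaphorins, Furin and Adam10 fell and Pcsk6 rose (50.0%, where 23.1% of all genes passed). Pcsk6 was listed at 0 FPKM in each immature library, at 0.01 FPKM in mature replicate 1 and at 0.22, 0.22 and 0.19 FPKM in mature replicates 2 to 4, the libraries with high heart genes. Furin, which encodes a proprotein convertase that cleaves class 3 semaphorins, fell from 39.1 ± 1.35 to 16.7 ± 1.94 FPKM (SD, n = 3 and n = 4), a log2 fold change of -1.33 (edgeR adjusted p = 4.38e-06). Adam10 had a log2 fold change of -1.65 (edgeR adjusted p = 6.13e-05). Adam17 and Mmp14, for proteases known to shed Sema4D, had log2 fold changes of -0.64 and -0.99 (edgeR adjusted p = 0.00113 and 0.000104), below the criterion. Vegfa, for a ligand of neuropilins, was at 89.2 ± 4.21 and 74.2 ± 5.56 FPKM (SD, n = 3 and n = 4), a log2 fold change of -0.37 (edgeR adjusted p = 0.00268). Flt1, for a receptor of the same growth factors, fell with a log2 fold change of -1.86 (edgeR adjusted p = 1.09e-05).

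The genes most like Sema7a in log2 CPM over the 7 libraries, among 4764 with a mean of at least 10 FPKM in a group, were Tnfsf4, Icam1 and Cx3cl1 (Pearson r = 0.9999, 0.9999 and 0.9997). Those most like Sema4d were Cerk, Sec14l1 and Hacd4 (Pearson r = 0.9997, 0.9995 and 0.9995). With groups this far apart such values mostly reflect a pattern of high against low libraries, and 240 genes for Sema7a and 352 for Sema4d had an r of at least 0.99. Tnfsf4 was at 5.00 and 55.7 FPKM, Icam1 at 29.2 and 107 FPKM and Cx3cl1 at 4.26 and 50.6 FPKM in immature and mature cells.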

How the data were processed

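RNA of 7 libraries of flow-sorted BMDCs was analysed. The table deposited by the authors holds FPKM to 2 decimals and estimated counts as whole numbers. The submitters' processing notes name cutadapt 1.9, HISAT2 2.2.1, StringTie 2.1.6, DESeq2, edgeR and the build mm9, without their roles. Coordinates in the table equal GENCODE M21 on GRCm38 for 24940 of 28588 shared genes, so GRCm38 is given. The deposited estimated counts are in fixed proportion to FPKM times length, and 29.5% of counts up to 40 in genes of 1 transcript are multiples of 4, where an even spread gives 25.0%. How many counts 1 fragment weighs is not settled, so the number of fragments behind totals of 54846746 to 67973086 counts is unknown.

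The main test on counts was that of edgeR 4.0.16 in R 4.3.3 (filter on low counts, TMM, quasi-likelihood test, Benjamini-Hochberg adjustment over 17461 genes). The standard error is the log2 fold change divided by the square root of F. Levels are compared between genes in FPKM only. The 10 genes and the lists were chosen with earlier results of these data known. Named are the 10 genes, other family genes that passed or had a mean FPKM of at least 1, the 8 genes with the smallest p of the receptor and signal lists, and the 3 genes most like Sema7a and Sema4d. Trem2, Tyrobp, Timd2, Itga1, Itgb1, Met, L1cam, Plxnb1, Pcsk6, Adam10, Adam17, Mmp14 and Vegfa were named after their values were seen. In simulated counts with 200 genes changed 4-fold, edgeR recovered 129 with 4 false calls, and 107 of the 107 with at least 5 CPM. The median chi-square per gene between replicates, on counts divided by 4, was 1.07 to 1.48, and 6.93 to 9.74 for pairs with mature replicate 3. The expected median is 0.455 if 4 counts were 1 fragment and only the sampling of fragments differed. No pair was counted as 1 sample. Alternatives used DESeq2 1.42.0, limma 3.58.1 on log2(FPKM + 1) and log2(FPKM + 0.1) for genes reaching 1 FPKM in 3 libraries, other filters and factors, a replicate block and the omission of each library. Python 3.11.15 and matplotlib 3.10.9 were used for summaries and figures.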

Additional observations from a re-analysis of the deposited data

Results flagged for a closer look

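In the 4 mature libraries, 13 values were compared for a library far from the others, and 2 were found. Chance would give about 0.65 cases among independent values. These values are not independent, since they share libraries and the family sums hold genes of the 10. The CPM of Sema4c was 20.2 in mature replicate 4 and 21.8, 22.0 and 21.9 in mature replicates 1 to 3, a gap of 0.905 of the range, which is itself narrow. The summed FPKM of the 9 plexin genes of mature replicates 1 to 4 was 222, 228, 147 and 228, and replicate 3 had a gap of 0.919 of the range. Mature replicate 3 had the lowest CPM of the mature libraries for 8 of the 10 genes.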

How the results depend on the processing

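Of 150 values of the log2 fold change of the 10 genes under alternatives, 0 changed sign. In 144 it also stayed the same whether both criteria together were passed. The other 6 were those of Plxna1, whose log2 fold change stayed between -1.14 and -0.87 and missed the criterion on fold change with limma (-0.92 and -0.95), upper quartile factors (-0.92), counts divided by 4 (-0.995, chosen after seeing the data) and without immature replicate 1 or mature replicate 3. The number of the 10 genes that fell was therefore 1 under these settings, and 1 to 2 without each library in turn. The adjusted p taken alone did cross 0.05 in some settings. For Sema6d, at 0.0333 in the main edgeR test, it rose to as much as 0.119. With upper quartile factors it was 0.0389 for Plxnc1 and 0.0385 for Plxnd1 by edgeR. Without mature replicate 3 it was under 0.05 for Plxnc1, Plxnd1 and Nrp2. With the adjusted p alone, 4 of the 10 were higher and 3 lower, 38 receptor and signal genes changed and 8053 genes passed in all. With limma on log2(FPKM + 1), 1 family gene outside the 10, 12 receptor and signal genes and 1768 genes passed, and on log2(FPKM + 0.1) 1 family gene and 2561 genes, where fewer genes were tested. Without each library in turn, 3 to 7 family genes outside the 10 passed. Upper quartile factors shifted the median log2 fold change of all genes by 0.11. Libraries of the same replicate number showed no sign of pairing (correlations of deviations 0.029, -0.001 and 0.014), but so few pairs cannot exclude it. With a replicate block 2 of the 10 rose, 2 fell, 6 family genes and 22 receptor and signal genes passed, and 3616 genes in all.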
